A study of Mus musculus with 6 samples.

Results

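Accessible regions written as 3 or more separate intervals made up 350 of the 19014 called regions on chromosomes 1 to 19 (1.84%) in a list from Ezh2-null fibroblasts. ATAC-seq, a method that tags open chromatin by means of a transposase loaded with sequencing adapters, had been applied to whole cells of 1 mouse embryonic fibroblast line, line A (also C2), immortalised with c-myc. The groups of the series were Ezh2 -/- cells (2 samples), Ezh2 -/- cells carrying a retroviral pMSCV-Ezh2 rescue (2 samples) and wild-type cells (2 samples). All 3 groups share the c-myc immortalisation, and a single immortalised line stands for each genotype. The values below come from 1 list, that of the Ezh2 -/- cells in mouse build mm10; the rescued and wild-type cells were not analysed here, so no genotype is compared. Neither the exons removed in the knockout nor the way of merging the 2 replicates is known from the labels. The list holds no value per replicate and no read counts, so depth is unknown, no replicate error can be given and no test was run.

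The peak caller SEACR gives each called region a total signal, the area under its coverage, a maximum signal, the height of that coverage, and the place of the maximum. Both signals are the authors' own values in their own unit. Rows with the same chromosome, total, maximum and place of maximum were taken as intervals of 1 called region; those with at least 3 rows are called split regions here, and those with 1 row are called 1-interval regions. The choice thus rests on how the list was written, and width, gaps and signal of the split regions are given as descriptions. The span runs from the start of the first interval to the end of the last, and a gap is the sequence between consecutive intervals. No row of another called region lay inside a split span. How called regions came to be written in several rows was not stated in the labels.

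Open chromatin in mammalian cells is concentrated at promoters and enhancers, where nucleosomes are displaced by transcription factors, and promoters rich in the dinucleotide CG are often open in many cell types. Clusters of neighbouring open elements occur at strongly transcribed genes and in gene-dense stretches. Ezh2 is the enzyme of the Polycomb repressive complex that methylates lysine 27 of histone H3 at silent developmental genes.

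Promoters from 5 wide split regions show what lay inside and between the intervals. They are windows of 300 bases around start sites in RefSeq's annotation of GRCm38.p6, the assembly behind mm10, and were chosen from the regions named below after the positions of their start sites had been seen. Capitals mark every CG on the printed strand, which is the gene's own strand. Over all protein-coding start sites of chromosomes 1 to 19 with a sequence in the table, a window held a median of 14 CG (quartiles 4 and 25), and 95.6% held at least 1. The first window is the start of Ccdc40, a gene needed for motile cilia, at chr11:119228322-119228621 on the plus strand. It lies in interval 9 of the region split in 12 intervals and holds 38 CG.
Ccdc40: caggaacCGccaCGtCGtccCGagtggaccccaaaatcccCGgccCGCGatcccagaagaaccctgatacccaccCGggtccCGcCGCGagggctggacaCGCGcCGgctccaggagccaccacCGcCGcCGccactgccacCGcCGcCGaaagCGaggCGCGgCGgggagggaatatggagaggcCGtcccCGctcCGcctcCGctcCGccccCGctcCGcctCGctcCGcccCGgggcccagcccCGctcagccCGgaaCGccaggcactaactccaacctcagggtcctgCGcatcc
The downstream of 2 listed starts of Mcm7, a subunit of the replicative helicase, lies at chr5:138171217-138171516 on the minus strand and holds 26 CG. The maximum of its split region, a single base at position 138171325 of chromosome 5, falls inside this window.
Mcm7: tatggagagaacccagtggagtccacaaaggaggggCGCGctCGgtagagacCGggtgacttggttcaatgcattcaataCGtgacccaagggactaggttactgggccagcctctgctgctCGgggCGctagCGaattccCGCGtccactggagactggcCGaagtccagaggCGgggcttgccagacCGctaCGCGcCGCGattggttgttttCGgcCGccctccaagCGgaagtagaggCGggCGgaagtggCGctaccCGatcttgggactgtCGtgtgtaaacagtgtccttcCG
The start of Engase, a cytosolic enzyme that removes N-glycans from proteins, lies at chr11:118476582-118476881 on the plus strand, with 20 CG. Here too the maximum of the region (118476831 to 118476834) lies inside the window.
Engase: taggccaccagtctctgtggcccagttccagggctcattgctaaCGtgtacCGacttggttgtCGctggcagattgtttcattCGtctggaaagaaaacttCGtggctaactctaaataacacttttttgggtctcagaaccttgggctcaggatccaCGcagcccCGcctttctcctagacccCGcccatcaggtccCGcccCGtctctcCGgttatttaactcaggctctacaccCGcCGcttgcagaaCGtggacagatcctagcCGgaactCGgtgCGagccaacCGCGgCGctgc
A pair of neighbouring sialyltransferase genes on chromosome 2 falls on both sides of an interval border. St6galnac4 starts inside an interval, at chr2:32586828-32587127 on the plus strand, in a window with 23 CG.
St6galnac4: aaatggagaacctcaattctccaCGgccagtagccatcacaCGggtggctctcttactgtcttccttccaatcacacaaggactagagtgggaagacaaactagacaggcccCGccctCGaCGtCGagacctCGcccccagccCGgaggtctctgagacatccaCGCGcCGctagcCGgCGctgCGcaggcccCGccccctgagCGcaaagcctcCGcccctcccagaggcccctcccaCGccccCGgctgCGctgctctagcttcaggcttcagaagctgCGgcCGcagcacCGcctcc
The listed start of St6galnac6, at chr2:32599459-32599758 on the plus strand, lies in the gap of 12473 bp that follows this interval, the widest gap in any split region, and its window holds 2 CG.
St6galnac6: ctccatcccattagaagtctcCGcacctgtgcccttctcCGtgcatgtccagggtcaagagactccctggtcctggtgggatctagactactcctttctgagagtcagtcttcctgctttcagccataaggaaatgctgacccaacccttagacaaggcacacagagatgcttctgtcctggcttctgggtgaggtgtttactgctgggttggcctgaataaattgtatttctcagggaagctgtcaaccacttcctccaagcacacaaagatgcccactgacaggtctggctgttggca
In a gap also lies the start of Crb2, a Crumbs protein of epithelial polarity, at chr2:37775999-37776298 on the plus strand, with 15 CG.
Crb2: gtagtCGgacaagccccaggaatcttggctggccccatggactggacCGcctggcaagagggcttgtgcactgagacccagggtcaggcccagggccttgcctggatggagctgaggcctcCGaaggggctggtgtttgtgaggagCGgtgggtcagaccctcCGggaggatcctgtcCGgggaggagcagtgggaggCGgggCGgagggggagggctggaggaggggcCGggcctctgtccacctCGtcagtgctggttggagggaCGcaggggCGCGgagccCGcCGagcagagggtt
These chosen windows do not compare intervals with gaps, and other windows inside intervals of the regions named below held few CG, such as that of Tac4 with 1, that of Madcam1 with 8 and that of Mblac1 with 9.

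The split regions were wide and were mostly covered by their intervals. Of the 350, 267 had 3 intervals, 61 had 4, 13 had 5, 6 had 6, 2 had 7 and 1 had 12. Their median span was 15402 bp (95% order-statistic interval 14446 to 16075; quartiles 11789 and 20619; range 6303 to 71424), against 2432 bp in the 16876 1-interval regions (quartiles 1868 and 3226). Regions in 2 intervals, just outside the rule, numbered 1788 and had a median span of 7082 bp. Median span increased with the number of intervals, from 13820 bp for 3 intervals through 20492 bp for 4 and 31927 bp for 5 to 71424 bp for the region with 12. The 1172 intervals of the split regions amounted to 4.31 Mb, which is 6.94% of all interval bases on these chromosomes, and their gaps to 1.70 Mb. Intervals covered a median of 72.7% of the span (quartiles 63.4% and 81.6%; range 33.6% to 94.6%).

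Gaps were narrower than intervals. The 822 gaps had a median width of 1525.5 bp (quartiles 891.75 and 2673.25; range 288 to 12473), and the intervals one of 2826.5 bp (quartiles 2079 and 4569.5). The single intervals of 1-interval regions had a median width of 2432 bp. Among the intervals of split regions 22 were under 200 bp (1.88%), against 103 of the 1-interval regions (0.610%). At least 7 kb wide were 117 intervals of split regions (9.98%), against 419 1-interval regions (2.48%). Across the 350 split regions the covered share showed no relation with span (Spearman's rho -0.00051), while span and total signal were related (rho 0.897). Total signal is an area under coverage and tends to grow with width, so the last relation is partly built in.

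**Figure D1:**
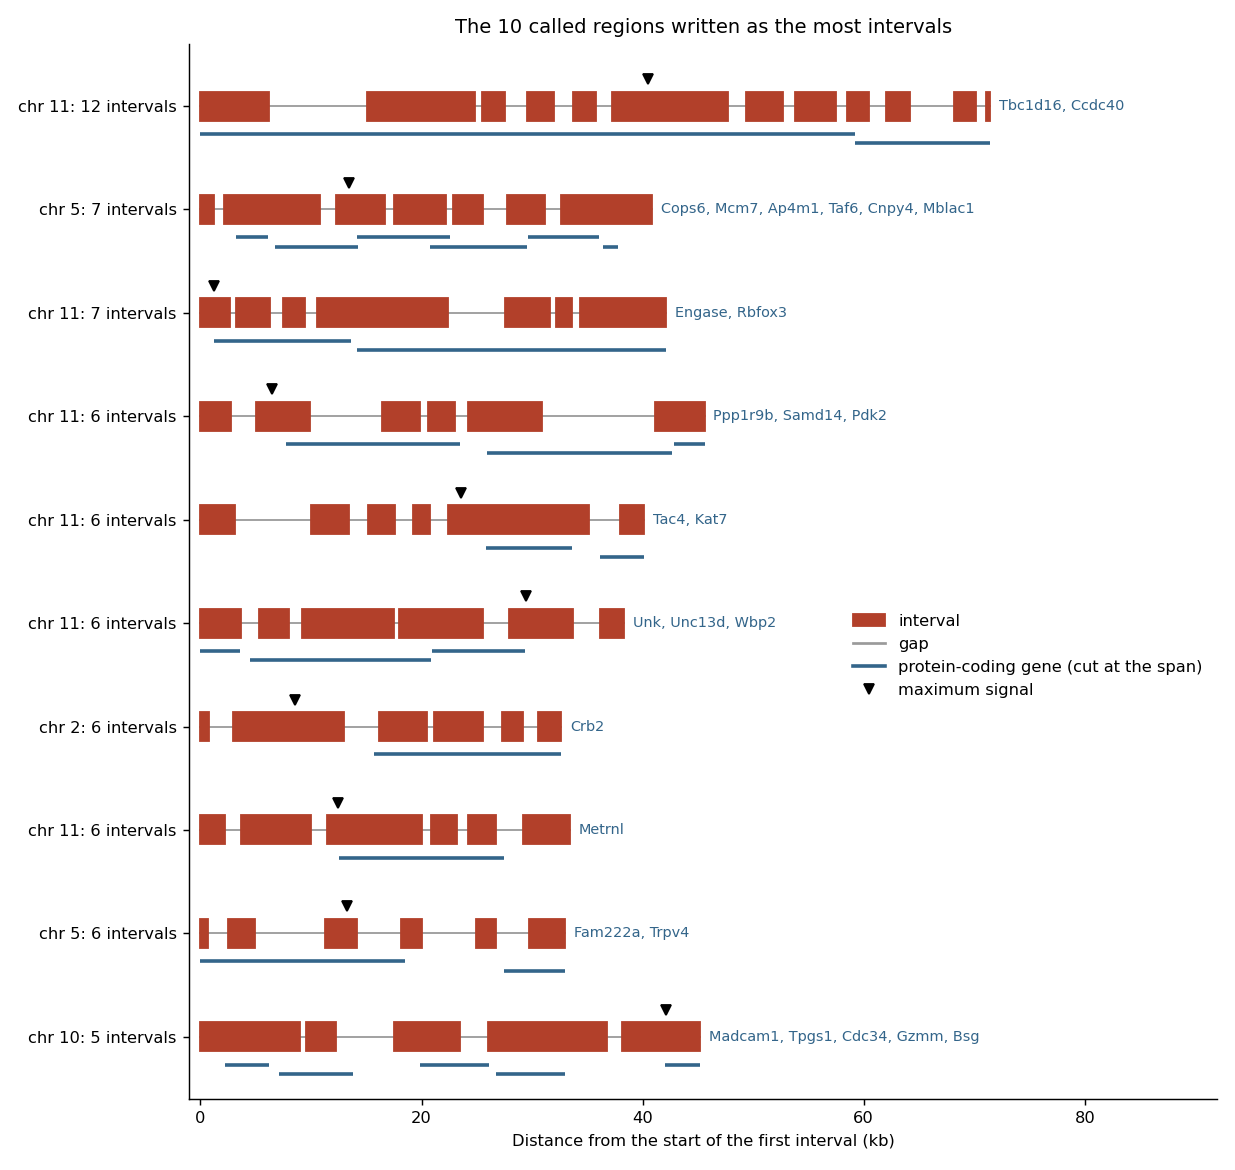
Maps of the 10 called regions written as the most intervals, each drawn to scale in kb from the start of its first interval. Red blocks are intervals, grey lines gaps, blue lines protein-coding genes cut at the span, and triangles the place of the maximum signal. The top region spans 71424 bp in 12 intervals, and in all 10 the maximum lies in an interval.

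Area, height and density of the signal differed between split and 1-interval regions in different ways. The median total signal was 130576 in split regions (quartiles 91403 and 184846) and 27102 in 1-interval regions (quartiles 19924.5 and 40283.8). The median maximum was 38 in split regions (quartiles 26 and 53; range 12 to 97) and 26 in 1-interval regions (quartiles 18 and 38). Total signal per base of span had a median of 8.33 in split regions and 11.6 in 1-interval regions. In 1-interval regions it reached 5980.67, above their highest maximum, 186, so some totals cover more than the written span. Split regions were thus larger in area and higher at the peak than 1-interval regions but lower per base of span. Gaps count in the span of split regions, and signal per base covered by intervals was not compared.

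The order of the maxima depended on which 1-interval regions were used. Of the 1-interval regions, 346 had a total signal inside the quartiles of the split regions, and their median maximum was 52 (quartiles 39 and 66.75), above the 38 of the split regions. Their signal per base of span was 14.6 and their median span 7491.5 bp, against 8.33 and 15402 bp in the split regions. Another set, chosen after the data had been seen, held the 591 1-interval regions at least as wide as the narrowest split region. Its median maximum was 39, next to 38 in the split regions, and its signal per base of span was 10.2. With a median span of 7668 bp it was not matched in width to the split regions. The set of similar total was not matched in full, with a median total of 108438 (order-statistic interval 105977 to 111326), against 130576 in the split regions (121875 to 136985). At a given total, span and signal per base of span are 2 sides of 1 quantity.

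**Figure D2:**
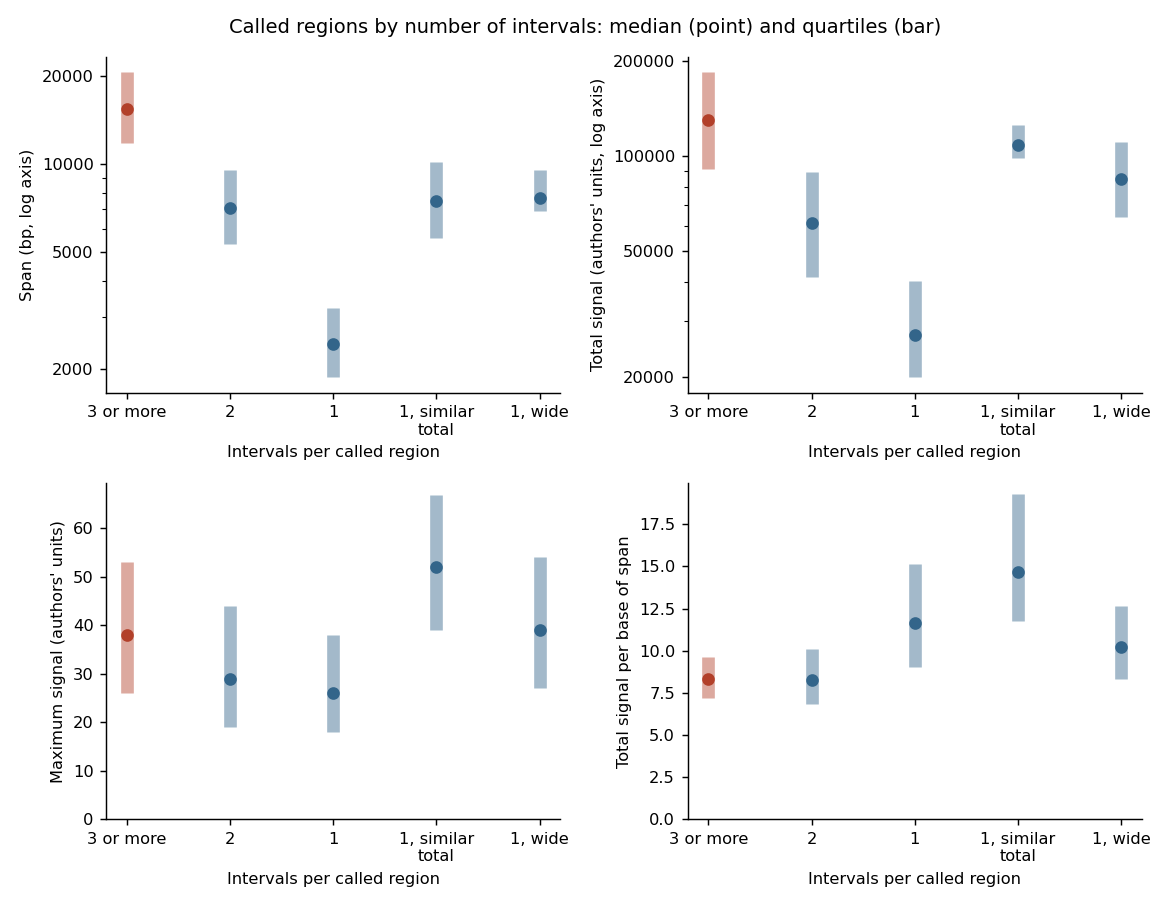
Span, total signal, maximum signal and total signal per base of span for called regions in 3 or more intervals (350), in 2 (1788), in 1 (16876), in 1 with a total signal inside the quartiles of the split regions (346) and in 1 at least as wide as the narrowest split region (591). Points are medians and bars run between the quartiles; the upper axes are logarithmic. The split regions have the widest span, while the 1-interval regions of similar total have the highest maximum.

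The place of the maximum is a stretch of bases in the list, and it overlapped an interval in 338 of the 350 split regions (96.6%; exact 95% binomial interval 94.1 to 98.2). It lay wholly inside 1 interval in 324 (92.6%; 89.3 to 95.1), ran over a border of an interval in 14 (4.0%) and lay in a gap alone in 12 (3.43%). Of the 14, 1 began before the span, at Slc26a9. In 1-interval regions the maximum lay wholly inside the interval in 15259 of 16876 (90.4%) and had no base in it in 1284 (7.61%). Among the 324 split regions with the maximum wholly inside 1 interval, 86 had it in the first interval, 146 in an inner one and 92 in the last, and 168 (51.9%) had it in the widest interval. Among those of exactly 3 intervals, the middle one held it in 101 of 246 (41.1%; interval 34.8 to 47.5). All 12 regions with their maximum in a gap had low maxima, between 14 and 26. They include spans inside Syt7 (maximum 26, total 98966), a synaptotagmin of vesicle fusion, and over Atp9a (16, 120922), a lipid flippase. Others lay at Plpp2, G6pc3 with Hdac5, Cyth1, Tbcd, Mad1l1, Csdc2, Snph and Col5a1, and 1 overlapped no gene.

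Split regions lay close to gene ends more often than 1-interval regions. A gene end here is either border of a protein-coding gene in the RefSeq table, since strand is not given there. A gene end stood within 1 kb of an interval in 263 of 350 split regions (75.1%; exact interval 70.3 to 79.6), against 7848 of 16876 1-interval regions (46.5%) and 971 of 1788 regions in 2 intervals (54.3%). The 1-interval regions of similar total reached 80.3% (interval 75.8 to 84.4), and the wide 1-interval regions 70.9% (67.1 to 74.5). Here as for the maximum, the difference from all 1-interval regions was not seen against those of similar total signal. The maximum of split regions was a median of 1107.5 bp from the nearest gene end, against 3546.5 bp in 1-interval regions and 452.5 bp in those of similar total. The exact intervals given here cover counting over regions only.

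Within split regions gene ends were found in the intervals more than in the gaps. Intervals held 641 gene ends in 4.31 Mb, or 14.9 per 100 kb, and gaps 115 in 1.70 Mb, or 6.76 per 100 kb. Of the intervals, 409 of 1172 held at least 1 gene end (34.9%; exact interval 32.2 to 37.7), against 91 of 822 gaps (11.1%; 9.01 to 13.4). Gene bodies showed no such difference: 67.8% of interval bases and 69.0% of gap bases lay inside protein-coding genes. In 1-interval regions the density was 18.6 gene ends per 100 kb and the share inside genes 59.1%. Inner intervals held a gene end in 39.2%, first intervals in 32.6% and last intervals in 31.4%. Their densities were close, at 15.24 gene ends per 100 kb in inner, 14.97 in first and 14.10 in last intervals. The shares are thus not read as a preference for inner intervals. Where the maximum lay wholly inside 1 interval, that interval held a gene end in 193 of 324 regions (59.6%; interval 54.0 to 65.0), and the other intervals of the same regions did so in 203 of 764 (26.6%; 23.5 to 29.9). Intervals with a gene end had a median width of 4527 bp and those without one of 2473 bp. The maximum lay in the widest interval in 168 of the 324 regions (51.9%), and a wider interval can hold more gene ends. The part of width in the contrast between the interval with the maximum and the others was not tested. In 102 split regions no interval held a gene end, in 127 exactly 1 did, in 87 exactly 2, in 29 exactly 3, in 4 exactly 4 and in 1 exactly 5.

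**Figure D3:**
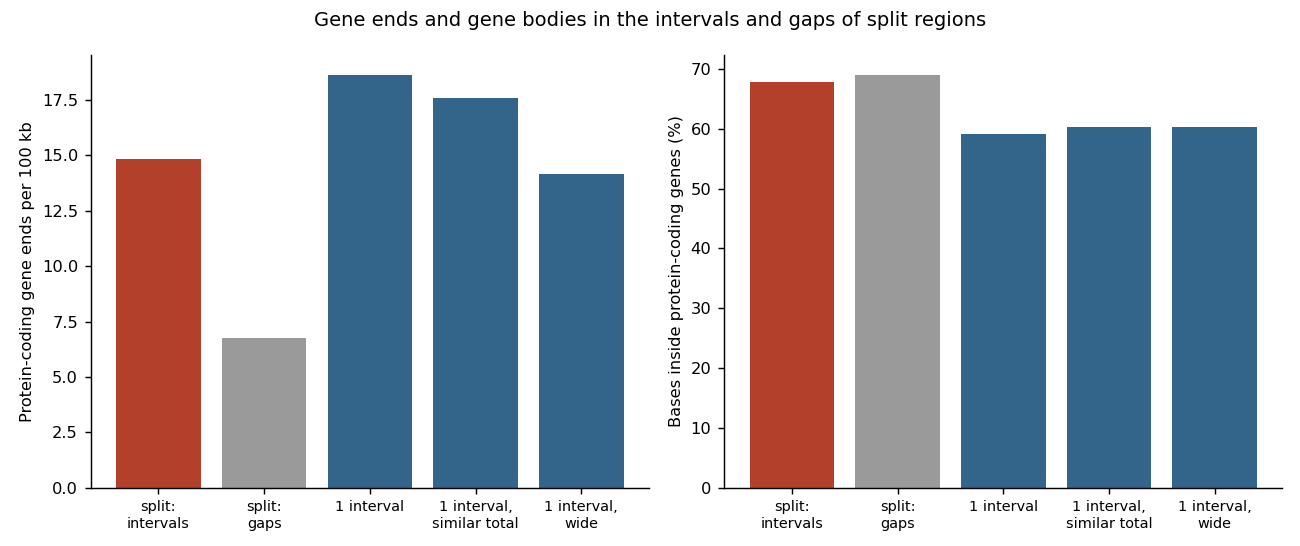
Protein-coding gene ends per 100 kb (left) and share of bases inside protein-coding genes (right), in the intervals of split regions, their gaps, all 1-interval regions, those of similar total and the wide ones. Gene ends are at 14.9 per 100 kb in the intervals and 6.76 in the gaps of split regions, while the shares inside genes are 67.8% and 69.0%.

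Several genes often shared 1 split region. At least 2 protein-coding genes were overlapped by the intervals in 161 of 350 split regions (46.0%; exact interval 40.7 to 51.4), against 1545 of 16876 1-interval regions (9.16%) and 105 of 346 of similar total (30.3%; 25.5 to 35.5). At least 4 were overlapped in 30 split regions (8.57%), against 16 1-interval regions (0.0948%). A whole gene lay inside the span in 125 split regions (35.7%), against 236 1-interval regions (1.40%) and 67 of similar total (19.4%). A wider span can hold more genes, and the similar-total regions had a median span less wide than the split regions. Within 250 kb of the midpoint lay a median of 13 protein-coding genes for split regions, 7 for 1-interval regions and 12 for those of similar total. No gene was overlapped in 39 split regions (11.1%), against 4535 1-interval regions (26.9%), 34 of similar total (9.83%; interval 6.9 to 13.5) and 80 wide ones (13.5%). The nearest other called region was a median of 4300.5 bp from a split region and 16259.5 bp from a 1-interval region, 7640.5 bp from one of similar total and 6068 bp from a wide one.

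The region in the most intervals lay on chromosome 11 over Tbc1d16, which encodes a GTPase-activating protein for Rab proteins, and Ccdc40. It ran from 119169285 to 119240708 in 12 intervals, with a total signal of 563210, the highest of any split region, a maximum of 47 and a covered share of 65.1%. Its first 8 intervals lay in Tbc1d16 alone, the ninth covered the ends of both genes, and the last 3 lay in Ccdc40 alone. The maximum stood in the sixth interval, 18712 bp from the nearest gene end, and the widest gap, between the first and the second interval, measured 8803 bp. So in this region the highest coverage lay inside a gene body and not at the shared border of Tbc1d16 and Ccdc40.

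The region on chromosome 5 from 138157878 to 138198709 held 6 genes in 7 intervals, with a total of 364361, a maximum of 56 and a covered share of 81.9%. Its genes are Cops6 (a subunit of the COP9 signalosome), Mcm7, Ap4m1 (an adaptor subunit of vesicle transport), Taf6 (a subunit of the transcription factor TFIID), Cnpy4 and Mblac1. Cops6 and Mblac1 were covered in full, Ap4m1 in 87.1%, Mcm7 in 81.3%, Cnpy4 in 77.9% and Taf6 in 68.3% of their length. Interval 3, of 4474 bp, held the maximum and the starts of both Mcm7 and Ap4m1.

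Another long region, on chromosome 11 from 118475593 to 118517708, had 7 intervals over Engase and Rbfox3, a neuronal splicing regulator known as NeuN (total 354291, maximum 53). The maximum lay 29 bp from the end of Engase where that gene starts. Its intervals touched Rbfox3, a gene of 421838 bp, only in the 27949 bp next to Engase. Rbfox3 was the single neuronal gene of 19 in a split region, and this overlap is thus at its border with Engase.

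Next in total after Tbc1d16 came regions that overlapped 5 and 7 genes. On chromosome 10, from 79662319 to 79707485, 5 intervals with a total of 454788 and a maximum of 75 covered Madcam1 (an endothelial adhesion molecule), Tpgs1, Cdc34 (a ubiquitin-conjugating enzyme), Gzmm (a granzyme of cytotoxic lymphocytes) and Bsg (basigin). The maximum stood 67 bp from an end of Bsg. On chromosome 11, from 120451858 to 120502376, 5 intervals with a total of 439060 and a maximum of 71 touched 7 genes: Pde6g, Oxld1, Ccdc137, Arl16, Hgs (a component of endosomal sorting), Mrpl12 (a mitochondrial ribosomal protein) and Slc25a10 (the mitochondrial dicarboxylate carrier). Intervals 2 and 4, of 18061 and 18459 bp, made up most of the covered length, and its outer intervals measured 162 and 116 bp. The region after these had fewer genes. Ppp1r9b (spinophilin), Samd14 and Pdk2 (a pyruvate dehydrogenase kinase) shared its 6 intervals, with a total of 384079, a maximum of 43 and a covered share of 54.7%.

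Other regions in 6 intervals differed in how full they were. Unk, Unc13d (needed for exocytosis of cytotoxic granules) and Wbp2 shared one with a total of 310436 and a maximum of 77, 18 bp from a gene end, at a covered share of 79.0%. Metrnl, which encodes a secreted factor, had 1 with a total of 250526, a maximum of 61 and a covered share of 78.7%. Over Tac4 (a tachykinin) and Kat7 (a histone acetyltransferase) the total was 312386, the maximum 57 and the covered share 63.2%. Crb2 had a total of 276684 and a maximum of 42, and the place of this maximum, inside an interval, was 7111 bp from the nearest gene end. The region over Fam222a and Trpv4, a cation channel, was the emptiest of these, with a covered share of 39.8%, a total of 228135 and a maximum of 27.

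The emptiest split region of all lay at Nfkbia, which encodes an inhibitor of NF-kappaB, with 3 intervals covering 33.6% of 10554 bp (total 74194, maximum 37). Its middle interval held both the gene end and the maximum. Next came Cacng4, a calcium channel subunit gene, with a covered share of 36.8% (maximum 20). At the other end stood the region over Pxn (paxillin, of focal adhesions), Rplp0 and Gcn1 on chromosome 5, covered to 94.6% (total 121249, maximum 69). Wide single gaps after that beside St6galnac6 were 12309 bp at Sema5b, 11121 bp at Ube2v1, 10314 bp at Btg2 and 10160 bp in the Ppp1r9b region. At Sema5b, a semaphorin gene, the gap separated a first interval of 1212 bp with no gene from the pair of intervals at the gene end.

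The highest maxima among split regions were 97 at Khsrp (an RNA-binding regulator of mRNA decay) with Slc25a41, 96 at Chaf1a (a subunit of the histone chaperone CAF-1) with Ubxn6 and Hdgfl2, 85 at Hexdc with Cybc1 and Narf, 85 at Kifc5b with Phf1 and Cuta, and 83 at Aspscr1 with Cenpx, Lrrc45, Rac3 and Dcxr. Their distances to the nearest gene end were 229, 170, 122, 275 and 81 bp, in the same order. A maximum of 83 was also found at Usp36 with Timp2, 28 bp from a gene end, and at Socs3, 1130 bp from one. Just inside the rule, the 3-interval regions of highest total lay over Ndufs7, Gamt and Dazap1 (364909), at Socs3, an inhibitor of cytokine signalling (332898), and over Gm33099, Ppp1r1b and Stard3 (314164). Just outside it, the 2-interval regions of highest total lay over Cdc6 and Rara (450377), over Rps21 with Cables2 and Rbbp8nl (414785) and over Midn, Cirbp, Fam174c and Efna2 (328386). Their covered shares were 84.0%, 94.2% and 90.1% for the 3-interval regions and 98.6%, 98.5% and 94.1% for the 2-interval regions.

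In 53 split regions (15.1%) the whole span lay inside 1 protein-coding gene, against 5430 of 16876 1-interval regions (32.2%). A wider span fits less easily inside a gene, and the median spans were 15402 and 2432 bp. This share was not compared with 1-interval regions of similar total or with wide ones. Among the 53, the highest totals were at Bahcc1, a chromatin protein gene (312446, maximum 61), and Srcin1, an inhibitor of Src kinase (264149, maximum 46). Kdm4b, a histone H3 lysine 9 demethylase gene, had 179014 with a maximum of 29. There were 23 genes overlapped by more than 1 split region. Mapt, which encodes the microtubule-associated protein tau, had 3, with totals of 126930, 105569 and 77651 and maxima of 54, 25 and 23. Tcf3, an E-protein transcription factor gene, had 2 (326540 and 151243), as did Rxra, a retinoid receptor gene (88201 and 159356), and the collagen genes Col16a1 (155301 and 119476) and Col5a1 (83688 and 43067).

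Among the 39 split regions that overlapped no protein-coding gene, the highest total was 187702 (maximum 63), in 4 intervals on chromosome 2 from 167763718 to 167782760. The nearest gene was Cebpb, a transcription factor gene of the acute phase and of fat cell differentiation, at 73285 bp. Others lay 65548 bp from Pmepa1, an inhibitor of TGF-beta signalling (156475, maximum 46), 13830 bp from Gm11544 (186053, maximum 47) and 328 bp from Tex44 (183699, maximum 51). The farthest from a gene was 142586 bp from Cand1 (47446, maximum 23). These distances tell which gene is nearest and not which gene is regulated.

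The split regions were unevenly spread over the chromosomes. Chromosome 11 had 90 of them (4.73% of its called regions), chromosome 5 had 64 (3.11%) and chromosome 2 had 61 (2.93%), together 215 of 350 (61.4%). Chromosome 17 had 32 (3.08%), chromosome 19 had 22 (2.90%) and chromosome 10 had 21 (1.76%). Chromosomes 13 and 14 had 0 of 502 and 0 of 423 called regions, which by the exact binomial interval allows up to 0.732% and 0.868%, and chromosomes 3 and 6 had 1 each. On chromosome 11 the split regions lay almost wholly beyond 90 Mb, with 86 of 1223 called regions there (7.03%; exact interval 5.66 to 8.61) and 4 of 680 up to 90 Mb (0.588%; 0.161 to 1.5). Of the split regions, 29 were within 10 kb of another one, 109 within 50 kb and 153 within 100 kb (43.7%).

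In some of the places where split regions were frequent, the 1-interval regions had low maxima. The median maximum of 1-interval regions was 19 on chromosome 11 beyond 90 Mb, 21 on chromosome 5 and 22 on chromosome 2, against 30 on chromosome 11 up to 90 Mb and 28 over all chromosomes but 2, 5 and 11. Chromosomes 17 and 19 did not share this: 3.08% and 2.90% of their called regions were split, yet it was 26 and 25 there, next to 26 over all. The median total of 1-interval regions was 30268 on chromosome 11 beyond 90 Mb, 29199 on chromosome 5 and 29292.5 on chromosome 2. It was 29936 on chromosome 17 and 30239.5 on chromosome 19. On chromosome 11 up to 90 Mb it was 24897, and over all chromosomes but 2, 5 and 11 it was 26599.5. Low maxima thus did not go with low totals. Split regions themselves had a median maximum of 46 on chromosome 11 beyond 90 Mb and 37 elsewhere, with median totals of 156560 and 124274 and covered shares of 77.1% and 71.7%. Copy number and the local level of coverage were not measured, so their part in this was not tested.

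**Figure D4:**
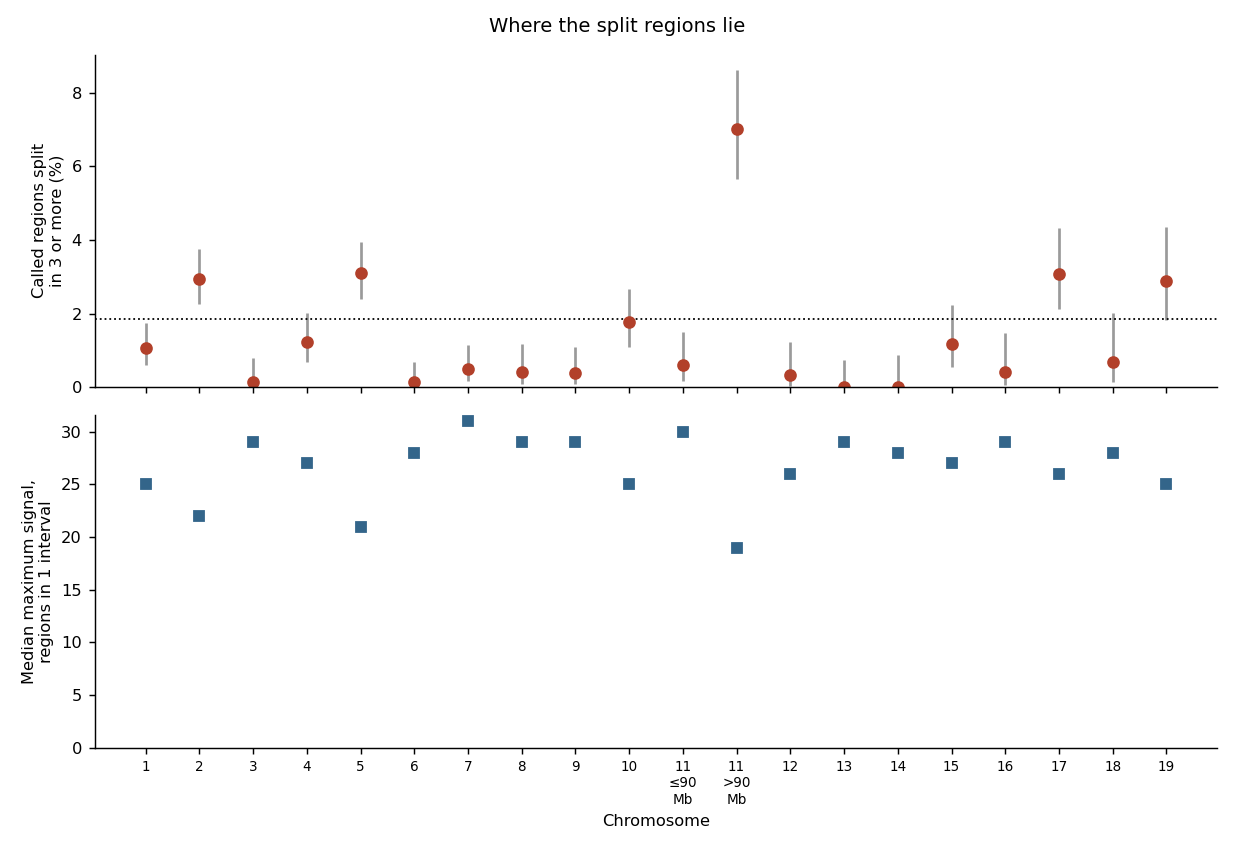
Share of called regions split in 3 or more intervals by chromosome (top, points with exact 95% binomial intervals; the dotted line is the share over all, 1.84%) and median maximum signal of 1-interval regions in the same places (bottom). Chromosome 11 beyond 90 Mb has the largest share, 7.03%, and the lowest median maximum, 19.

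Splitting went with total signal. Of the 350 split regions, 314 fell among the 10% of called regions with the highest totals, where they made up 16.5%. No called region with a total of 34372 or less was split. Total signal is an area under coverage and tends to grow with width, and the split regions were wide. The relation of splitting with total signal is thus partly built in, and how much of it width accounts for was not tested. Within the top 10% the share still differed by place. It was 27.5% on chromosome 11 beyond 90 Mb (exact interval 22.4 to 33.1), 17.5% on chromosomes 2 and 5 (14.6 to 20.8), 15.3% on chromosomes 10, 17 and 19 (12.1 to 19) and 10.4% elsewhere (7.96 to 13.3). Median totals in these sets were 114946, 95096, 94569 and 87550, in the same order, so the sets also differed in total signal.

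Intervals of split regions overlapped 575 of the 20665 protein-coding genes on chromosomes 1 to 19 (2.78%), against 11413 overlapped by any interval in the list (55.2%). The total and maximum given beside a gene are those of its called region, and of 64 list genes in split regions 18 held the maximum inside their own borders. The shares of gene lists are read against these values. Beyond 90 Mb on chromosome 11 the background was 142 of 626 genes (22.7%), and elsewhere 433 of 20039 (2.16%). Of the lncRNA genes, 105 of 12408 were overlapped by a split region (0.846%).

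Genes of the Polycomb complexes had the highest share among the 29 lists and families. Of 30 such genes, 6 were overlapped by a split region (20%; exact interval 7.71 to 38.6), each by a different one. They included Pcgf2 (total 280999, maximum 81), a RING finger subunit of Polycomb repressive complex 1, Cbx2 (125324, maximum 46), a chromodomain subunit of the same complex, Epop (204844, maximum 40) and Phf1 (166497, maximum 85), accessory subunits of Polycomb repressive complex 2, and Phc2 (87310, maximum 48), a Polyhomeotic protein. Of the 6, 4 lie on chromosome 11 beyond 90 Mb, Pcgf2, Cbx2 and Epop among them, where the list has 6 genes. Elsewhere 2 of its 24 genes were in a split region (8.33%; interval 1.03 to 27), against 2.16% of all genes there. The maximum lay inside the gene at Cbx2 and Phc2, and outside it at Pcgf2, Epop and Phf1. Intervals covered 88.1% of Pcgf2, 85.4% of Epop, 53.4% of Cbx2, 8.78% of Phf1 and 6.62% of Phc2. Pcgf2 shared its region with Mllt6, Cisd3 and the proteasome gene Psmb3, and Phf1 shared its own with Kifc5b and Cuta, the maximum being in Cuta. Of the trithorax group and H3K27 demethylases, 0 of 17 were in a split region, with 16 overlapped by some interval. The exact interval of this share, 0 to 19.5%, includes the 2.78% of all genes.

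Hox genes, which pattern the body axis and are textbook Polycomb targets, followed with 6 of 39 (15.4%; interval 5.86 to 30.5), all in 2 regions. Hoxc4, Hoxc5 and Hoxc6 lay in 3 intervals on chromosome 15 from 102998379 to 103021574, covered to 91.9%, with a total of 227772 and a maximum of 40. Hoxb3, Hoxb5 and Hoxb6 lay in 4 intervals on chromosome 11 from 96291794 to 96312423, covered to 80.7%, with a total of 157215 and a maximum of 31. Neighbouring Hox genes share a region, so the 6 genes are not independent of each other. Outside the far end of chromosome 11 the Hox share was 3 of 29 (10.3%; interval 2.19 to 27.4). Of 69 other developmental regulators known as Polycomb targets, 0 were in a split region, and 34 were overlapped by some interval. The exact interval of this share, 0 to 5.21%, includes the 2.78% of all genes.

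Immediate-early, housekeeping, ribosomal protein, proteasome and splicing factor lists had shares between 3.33% and 12%. Except for mitochondrial ribosomal protein genes, their exact intervals include the 2.78% of all genes. Of 25 immediate-early genes, which respond within minutes to growth factors, 3 were in a split region (12%; interval 2.55 to 31.2): Ier3 (250103), Egr1 (219034) and Btg2 (174846). All 25 were overlapped by some interval. Housekeeping genes had 3 of 27 (11.1%; 2.35 to 29.2): the tubulin gene Tubb5, in the same region as Ier3, the chaperone gene Hsp90ab1 (215666) and Vcp (132399), an ATPase of protein quality control. Mitochondrial ribosomal protein genes had 6 of 78 (7.69%; 2.88 to 16.0), led by Mrpl12 (439060), Mrpl38 (290417), Mrps18b (247210) and Mrpl10 (205184). Outside the far end of chromosome 11 the mitochondrial ribosomal share was 3 of 71 (4.23%; 0.88 to 11.9). Cytosolic ribosomal protein genes had 5 of 83 (6.02%; 1.98 to 13.5), with Rpl23, the highest, at 197056, and 3 of 79 outside the far end of chromosome 11 (3.80%). Proteasome genes had 2 of 38 (5.26%), Psmb3 and Psmd3 (214156), both on chromosome 11 beyond 90 Mb, with 0 of 34 elsewhere. Splicing factors had 1 of 30, Ptbp1 (313665, maximum 79), a regulator of exon choice.

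Lists of fibroblast genes had shares between 3.45% and 6.06%, with exact intervals that include the 2.78% of all genes. Extracellular matrix genes had 2 of 33 (6.06%; interval 0.743 to 20.2), Timp2, an inhibitor of matrix metalloproteinases (191945), and Col5a1, which encodes a fibrillar collagen; Timp2 lies beyond 90 Mb on chromosome 11, and 1 of 31 was in a split region elsewhere. Actin cytoskeleton genes had 1 of 29, Cnn2 (calponin 2, total 297117), and mesenchymal transcription factors 1 of 24, Nfic (214191). Intervals of that region covered only 63 of the 35729 bp of Nfic (0.176%), and its maximum lay outside the gene. Most genes of these lists were overlapped by some interval, 28 of 33, 25 of 29 and 19 of 24. Lists of other cell types had 1 of 17 for endothelial genes (Nos3, 129114), 1 of 19 for neuronal genes (Rbfox3), 1 of 23 for haematopoietic genes (Cd68, 108340) and 0 for epithelial (20), hepatocyte (19), striated muscle (19) and pluripotency genes (22). The Myc network had 0 of 24 in a split region and 22 overlapped by some interval, and the p53, Rb and senescence list 0 of 17 and 15. Imprinted genes had 0 of 20 in a split region. The exact intervals of the Myc, p53, imprinted and other cell type lists with 0 also include the 2.78% of all genes.

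The shares of large families changed with place. Tmem genes had 9 of 228 (3.95%; interval 1.82 to 7.36) and solute carriers 11 of 333 (3.30%; 1.66 to 5.83), of which Slc25a10 had the highest total. Beyond 90 Mb on chromosome 11 there were 2 of 7 Tmem genes and 6 of 11 solute carriers. Elsewhere the shares were 7 of 221 for Tmem genes (3.17%; 1.28 to 6.42) and 5 of 322 for solute carriers (1.55%; 0.506 to 3.59), against 2.16% of all genes there. Zfp genes had 5 of 386 (1.30%; 0.422 to 3), with 249 overlapped by some interval, and 4 of 383 outside the far end of chromosome 11 (1.04%). Core histone genes had 0 of 73 (interval 0 to 4.93%, which includes the 2.78% of all genes), and 43 were overlapped by some interval. Olfactory receptor genes (0 of 1104) and vomeronasal receptor genes (0 of 354), which fibroblasts keep silent, were rarely overlapped by any interval (6 and 1). Every interval on a list's share covers counting over genes only.

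**Figure D5:**
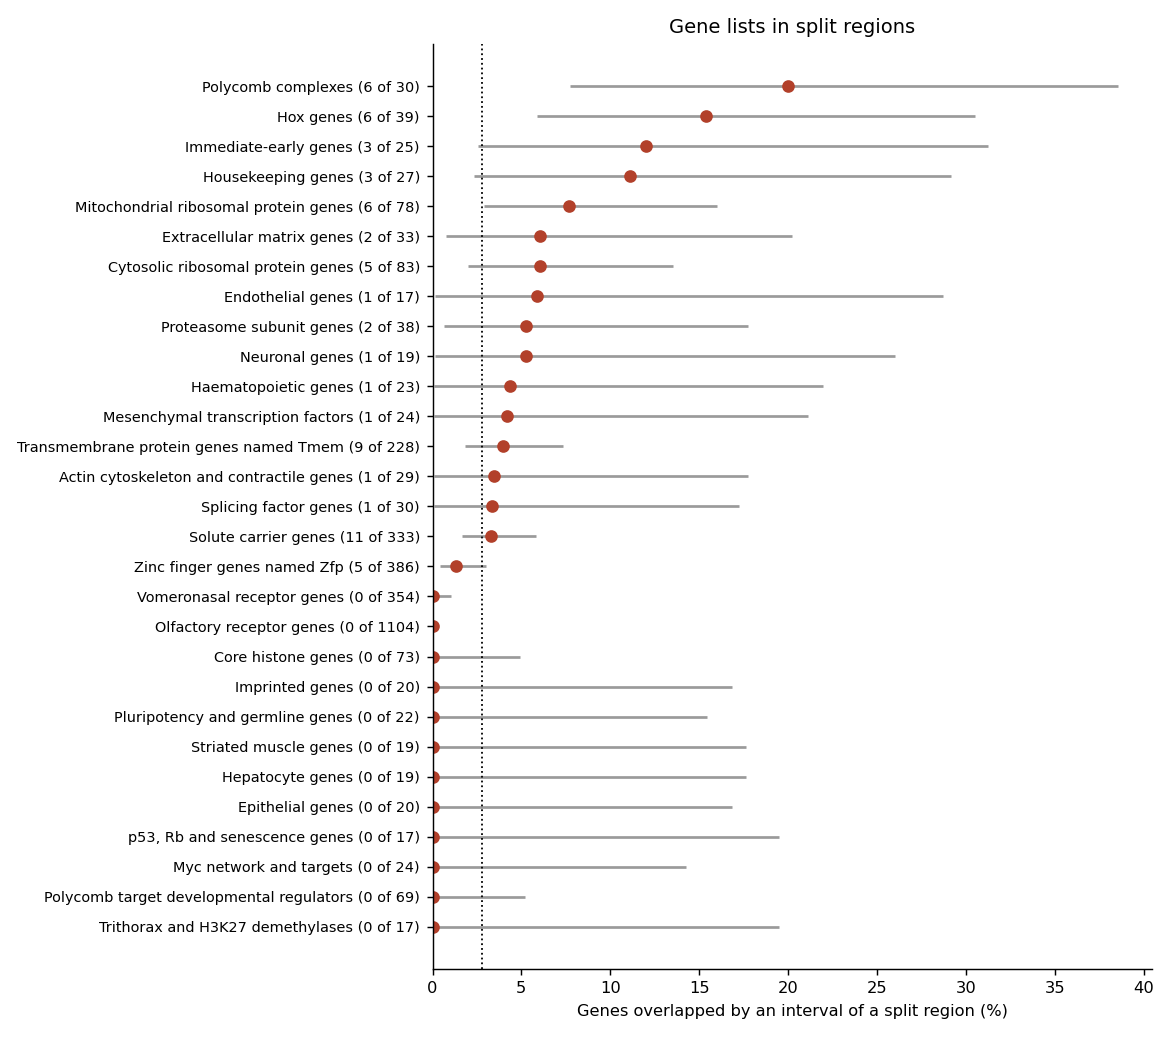
Share of the genes of each list or family overlapped by an interval of a split region, with exact 95% binomial intervals; the dotted line is the share of all protein-coding genes on chromosomes 1 to 19, 2.78%. Polycomb complex genes are at 20% and Hox genes at 15.4%, and the 12 lists at the bottom have 0.

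Split regions also held 30 of 919 miRNA hairpins, 23 in intervals and 7 in gaps. Intervals of split regions overlapped 575 of 20665 protein-coding genes (2.78%), and the share of hairpins in any interval is not given here. The count is thus not read as an excess. A cluster of 3 lies inside Mcm7 in the second interval of the 7-interval region on chromosome 5: Mir25 at 138165321 to 138165404, Mir93 at 138165523 to 138165610 and Mir106b at 138165737 to 138165818, all on the minus strand. Their main mature forms are shown with the seed (bases 2 to 8), which pairs with target mRNAs, in capitals.
mmu-miR-106b-5p: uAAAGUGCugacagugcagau
mmu-miR-93-5p: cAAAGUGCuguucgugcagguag
mmu-miR-25-3p: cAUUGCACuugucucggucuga
The pair mmu-miR-106b-5p and mmu-miR-93-5p share the seed AAAGUGC, the only seed shared by mature forms in split regions. The seed of mmu-miR-25-3p is AUUGCAC. The list measures accessibility of the DNA and holds no level of any miRNA. On chromosome 9 a region of 3 intervals over Dalrd3 (total 84707, maximum 38) held Mir191 in an interval and Mir425 in the gap next to it.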

How the data were processed

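ATAC-seq of 6 samples (3 groups with 2 samples each, grouped by the genotype and treatment labels) was the basis of the series, per the labels. From the deposited data 1 list was used, the SEACR intervals of the Ezh2 -/- cells. The submitters' processing notes name Bowtie2 2.2.9, deepTools, SEACR and mm10, with no settings, read shift for the transposase or treatment of duplicates. The total signal of each called region, a score as deposited, and its maximum signal came from the authors without a stated normalization, so values are compared within this list only.

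Intervals were grouped into called regions by identical values, and X, with 133 called regions, and unplaced sequence were left out. Genes came from a RefSeq table on GRCm38 with borders but no strand or exons, so exon, intron and UTR positions are not given. The planned analysis of promoter CpG content and motifs over all genes was not run, since a sequence was at hand for 450 of 571 genes of split regions outside chromosome 18 (78.8%). A gene was counted as overlapped at 1 bp or more. Of 498 list entries 4 matched by a synonym and 12 did not match; 19 lists and 10 families by name were used. The members and lists were chosen with earlier results of these data known. The named regions are the 10 with the most intervals, the 5 at each extreme of total signal, span, gap, covered share and maximum, the 3 of highest total on both sides of the rule, and up to 4 genes per list; other regions and genes were named after their values had been seen. A few of the genes selected in this way are not reported here. Shares carry exact 95% binomial (Clopper-Pearson) intervals and medians order-statistic intervals, which cover counting only. Versions were matplotlib 3.10.9, scipy 1.17.1, pandas 2.3.3 and numpy 2.4.6 under Python 3.11.15, and the code was tested on simulated regions. Alternatives changed the number of intervals, short intervals, narrow gaps, total signal, the window at gene ends, the overlap, the comparison group and the chromosomes used.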

Additional observations from a re-analysis of the deposited data

How the results depend on the processing

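No paired analysis was possible because the list has 1 set of values for both replicates, and none was left out for the same reason. With at least 4 intervals required, 83 regions were left, with a median span of 22867 bp, a median maximum of 44, a gene end within 1 kb in 81.9% and 0.798% of genes overlapped. Both removals of chromosomes were chosen after seeing the data. Without chromosomes 2, 5 and 11, 135 split regions were left, 82.2% of them with a gene end within 1 kb, and 1.62% of genes were overlapped. Without chromosome 11 beyond 90 Mb, 2.16% of genes were overlapped. Split minus 1-interval regions, the median maximum differed by 12, but by -14 against 1-interval regions of similar total and by -1 against wide ones. The share with a gene end differed by 28.6 percentage points, but by -5.20 against similar total and 4.25 against wide ones. Total signal per base of span differed by -3.30, and by -6.32 and -1.92 against the same sets. The causes were not tested. Another 37 values stayed within their interval, or within 1.5 times for counts. Joining gaps under 100 bp and requiring a total above the median of all called regions changed nothing. The narrowest gap was 288 bp and the lowest total of a split region 35454. The values of these settings are among the 37 but could not have moved. Dropping intervals under 200 bp left 339 regions.

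Depth is unknown, and 1 list cannot show how often the same regions would be split in another sample.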

Other observations

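On the X chromosome 133 regions were called, of which 0 were in 3 or more intervals and 2 in 2. Unplaced sequence had 68, of which 0 were in 3 or more intervals and 8 in 2. Slc38a10, a solute carrier gene, was overlapped by 2 split regions, whose maxima were 75 and 56.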
